A study of Mus musculus with 2 samples.

Results

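The regions described here are the H3K4me1 peaks that lie close to the start of a protein-coding gene in mouse embryonic stem cells. They are the intervals of the authors' replicated peak list on chromosomes 1 to 19 whose centre was less than 1 kb from the nearest protein-coding transcription start site (TSS), taken as the 5′ end of the gene record. This rule kept 14039 of the 222570 autosomal intervals (6.31%), out of 226060 in the whole list, and left 208531 intervals elsewhere on the autosomes. The measurement was ChIP-seq, the sequencing of DNA pulled down with a chromatin antibody, here against H3K4me1 in E14TG2a.4, a male embryonic stem cell line of strain 129/Ola that the labels class as embryonic with an age of 3.5 days. Both samples, biological replicates 1 and 2, are unmodified cells of this line and belong to the same group, so no treated or mutant cells were compared. A cell line stands for the genome of its donor embryo, so the replicates do not measure variation between animals. The labels name a possible control experiment, which was not analysed here.

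H3K4me1 is histone H3 with a single methyl group on lysine 4, placed at enhancers mainly by the KMT2C and KMT2D methyltransferases. It is known as a mark of enhancers, both active and poised. At active CpG-rich promoters the nucleosomes next to the TSS usually carry trimethylation of the same lysine, and H3K4me1 is found farther out on the flanks.

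The genes were sorted by where their peaks lay, and the sequence around the start differed between these classes. A gene was placed in the class "over the TSS" when a promoter-proximal peak covered its TSS base, and in the class "upstream only", "downstream only" or "both sides" when its peaks left that base uncovered. Genes with no promoter-proximal peak formed the last class. The promoters below are single examples from 4 of the classes, taken from RefSeq on GRCm38.p6, each 250 bases before to 50 bases after the start. The capitals mark every CpG dinucleotide.
Ctnnb1, chr9:120933150-120933449, plus strand: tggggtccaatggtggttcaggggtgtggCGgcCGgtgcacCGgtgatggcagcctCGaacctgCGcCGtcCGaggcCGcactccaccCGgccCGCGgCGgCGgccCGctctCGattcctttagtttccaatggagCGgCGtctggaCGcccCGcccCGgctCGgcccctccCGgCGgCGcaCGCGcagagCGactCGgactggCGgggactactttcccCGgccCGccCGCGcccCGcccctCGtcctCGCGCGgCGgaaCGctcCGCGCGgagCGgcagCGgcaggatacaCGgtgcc
Tbp, chr17:15499638-15499937, plus strand: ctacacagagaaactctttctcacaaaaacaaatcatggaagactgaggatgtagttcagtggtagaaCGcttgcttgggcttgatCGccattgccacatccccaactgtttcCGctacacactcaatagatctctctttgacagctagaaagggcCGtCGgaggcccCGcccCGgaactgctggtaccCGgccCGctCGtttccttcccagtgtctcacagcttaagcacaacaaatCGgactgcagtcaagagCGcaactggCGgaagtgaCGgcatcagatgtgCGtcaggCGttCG
Neurog1, chr13:56252131-56252430, minus strand: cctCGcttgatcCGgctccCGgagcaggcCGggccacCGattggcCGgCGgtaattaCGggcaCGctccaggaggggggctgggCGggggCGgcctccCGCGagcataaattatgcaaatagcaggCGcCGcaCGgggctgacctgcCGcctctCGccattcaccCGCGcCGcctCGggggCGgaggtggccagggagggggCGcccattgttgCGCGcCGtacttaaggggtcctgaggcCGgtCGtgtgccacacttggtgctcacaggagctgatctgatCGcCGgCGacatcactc
B2m, chr2:122147437-122147736, plus strand: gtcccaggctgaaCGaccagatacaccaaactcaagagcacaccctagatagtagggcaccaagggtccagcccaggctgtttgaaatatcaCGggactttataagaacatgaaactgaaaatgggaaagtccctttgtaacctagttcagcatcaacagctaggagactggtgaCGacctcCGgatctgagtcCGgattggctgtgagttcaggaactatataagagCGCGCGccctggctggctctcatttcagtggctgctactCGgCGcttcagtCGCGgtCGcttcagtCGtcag
Pax6, chr2:105668646-105668945, plus strand: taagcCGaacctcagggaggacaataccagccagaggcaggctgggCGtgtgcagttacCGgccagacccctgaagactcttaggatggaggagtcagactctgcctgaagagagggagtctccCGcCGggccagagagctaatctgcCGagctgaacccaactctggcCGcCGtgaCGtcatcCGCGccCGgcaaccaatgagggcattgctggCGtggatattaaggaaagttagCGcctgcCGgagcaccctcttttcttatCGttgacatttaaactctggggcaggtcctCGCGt
Bmp4, chr14:46390620-46390919, minus strand: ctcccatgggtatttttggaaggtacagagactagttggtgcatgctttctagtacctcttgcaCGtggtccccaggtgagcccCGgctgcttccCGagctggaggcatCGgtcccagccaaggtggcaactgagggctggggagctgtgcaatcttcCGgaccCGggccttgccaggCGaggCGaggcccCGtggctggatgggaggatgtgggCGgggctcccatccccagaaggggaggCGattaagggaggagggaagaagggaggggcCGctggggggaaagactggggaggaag
Afp, chr5:90490464-90490763, plus strand: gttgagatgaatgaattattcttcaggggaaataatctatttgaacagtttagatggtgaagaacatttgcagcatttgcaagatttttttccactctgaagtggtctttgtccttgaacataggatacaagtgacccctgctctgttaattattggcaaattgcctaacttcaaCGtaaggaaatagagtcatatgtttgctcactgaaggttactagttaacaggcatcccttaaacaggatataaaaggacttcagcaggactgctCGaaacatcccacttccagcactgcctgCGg
Ctnnb1, which encodes beta-catenin, had 46 CpG in this window, and its peak ended 234 bp before the TSS. Tbp, the TATA-binding protein gene and also of the upstream-only class, had 17 CpG. Neurog1, a neural basic helix-loop-helix factor, had 32 CpG and a peak on each side, with the TSS between them. B2m, which encodes a class I histocompatibility subunit, was also of the both-sides class and had 14 CpG. In replicate 2 it was downstream only, as its upstream peak was overlapped by replicate 1 and not replicate 2. The 18 CpG of Pax6, a regulator of eye and forebrain development, and the 12 CpG of Bmp4, a BMP ligand, lay under peaks that ran across the start. In replicate 2, however, Bmp4 was of the both-sides class. At Afp, a fetal liver protein gene with 3 CpG, no peak of the replicated list was within 1 kb. Tbp and B2m thus had fewer CpG than Pax6. The rule for printed sequences did not list the upstream-only class, and Ctnnb1 and Tbp were added after their values were seen.

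In the replicated list, promoter-proximal peaks were about as wide as the other autosomal peaks at the median but rarely very wide. Their median width was 706 bp, against 695 bp elsewhere. The middle of the distribution ran from 463 to 1029 bp (quartiles), against 418 to 1268 bp elsewhere. Peaks over 2 kb made up 4.64% of them and 11.9% of the others, and the widest measured 14385 bp and 33348 bp. The rule itself bears on this, because an interval that leaves the TSS uncovered and has its centre within 1 kb cannot exceed 2 kb. All 651 promoter-proximal peaks over 2 kb did cover the TSS. In the replicates' own lists, promoter-proximal peaks were wider than the rest: 530 bp against 400 bp in replicate 1 and 452 bp against 393 bp in replicate 2. Their mean median width over the replicates was 491 bp ± 55.2 (SD, n = 2), against 396.5 bp ± 4.95 elsewhere. The series list on mm9, deposited in another format, gave the opposite order, with medians of 1200 bp near a TSS and 1800 bp elsewhere.

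**Figure D1:**
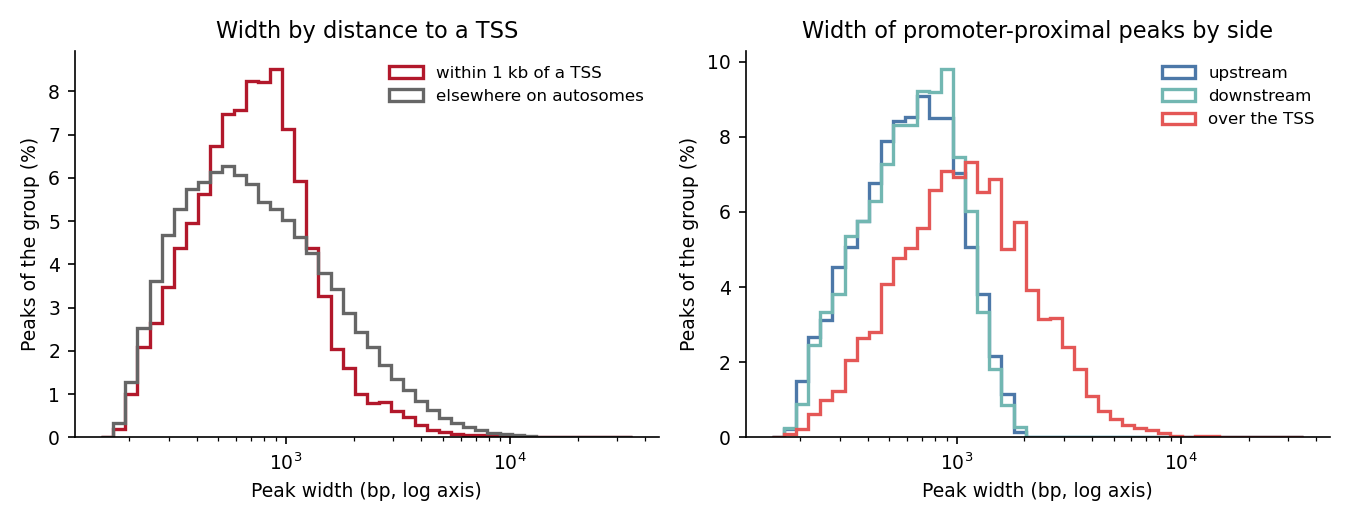
Width of peaks in the replicated list, as percent of the peaks of each group, on a log axis of base pairs. Left, the promoter-proximal peaks (within 1 kb of a TSS) end sooner on the wide side than the other autosomal peaks. Right, peaks over the TSS have a median of 1074 bp and reach 14385 bp, while those that miss the TSS on either side stay under 2 kb.

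The signal value that the authors' peak caller gave each peak was highest 1 to 2 kb from the TSS, just outside the limit. By distance its median was 4.47 under 500 bp, 4.87 from 500 bp to 1 kb, 5.22 from 1 to 2 kb and 4.52 from 2 to 5 kb. Pooled, it was 4.75 for promoter-proximal peaks and 4.17 elsewhere, and the median −log10 q was 15.7 against 12.6. In replicate 1 the median signal values were 4.46 and 3.79, and in replicate 2 they were 4.17 and 3.76. These values are the authors' own and their scale is not given in the sources used here.

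Most promoter-proximal peaks stood beside the TSS and more stood upstream of it than downstream. Of the 14039 peaks, 6381 (45.5%) lay upstream without touching the TSS base, 4071 (29.0%) lay downstream, and 3587 (25.6%) covered it. Upstream and downstream peaks had median widths of 624 and 644 bp, and peaks over the TSS had 1074 bp. A peak covers the TSS only if it is wide enough to reach it from its centre, so this class is partly chosen by width. The median signal values were 5.33 over the TSS, 4.64 upstream and 4.43 downstream, and were not compared at equal width. In the replicate lists, which hold more and narrower peaks, fewer covered the TSS: 20.3% in replicate 1 and 17.4% in replicate 2, a mean of 18.9% ± 2.05 (SD, n = 2).

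The upstream excess belonged to the innermost distances. By their centres, 42.0% of promoter-proximal peaks were downstream, 44.4% in replicate 1 and 42.8% in replicate 2. The downstream share was 37.3% for centres under 500 bp from the TSS, 45.5% from 500 bp to 1 kb and 62.1% from 1 to 2 kb. Over all autosomal peaks that were not promoter-proximal it was 61.6%. Counted in 100 bp bins, centres upstream were most frequent between 500 and 400 bp before the TSS, with 1085 peaks. Downstream the highest bin was 900 to 1000 bp, with 963 peaks, and in both replicate lists it was the next bin outward, from 1000 to 1100 bp. A cutoff at 1 kb therefore takes in the highest upstream bins and divides the downstream crest. Within 1 kb, centres in the replicated list were fewest 300 to 400 bp downstream, with 424, against 445 in the 100 bp before the TSS. Summits, the caller's point of highest signal in each peak, were, within 1 kb of the TSS, fewest in the 100 bp before it, with 411 in the replicated list. They were most frequent 400 to 300 bp upstream, with 1156, and 1100 to 1200 bp downstream, with 1018.

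**Figure D2:**
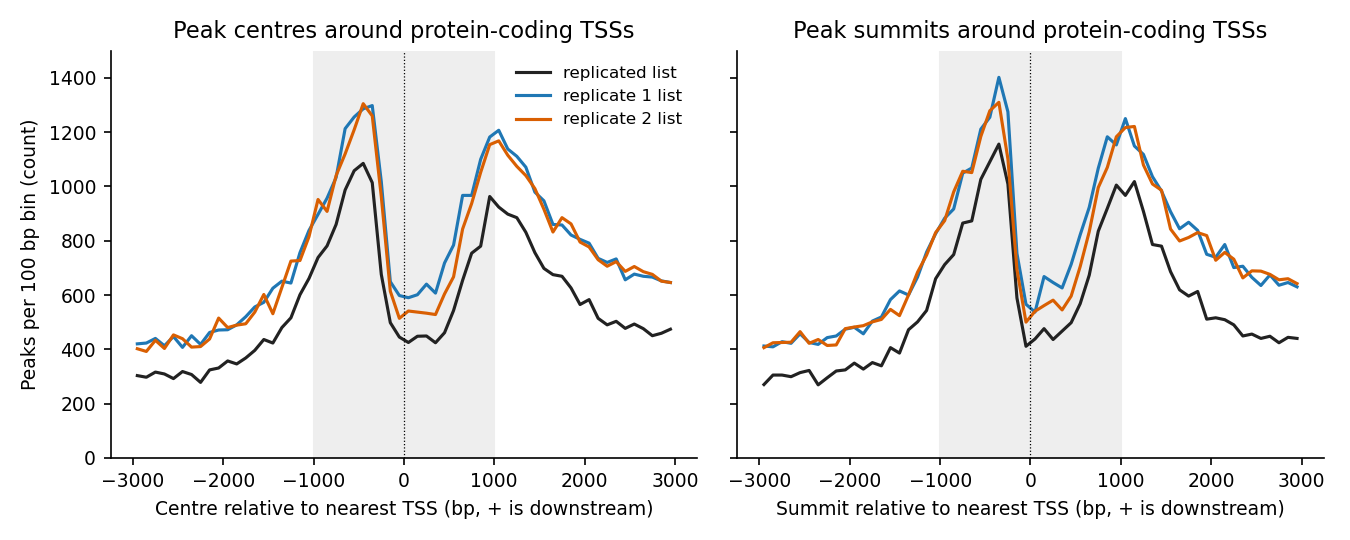
Number of peaks per 100 bp bin by the position of the peak centre (left) or summit (right) relative to the nearest TSS, in bp with downstream positive, for the replicated list and each replicate list. Grey marks the 1 kb on each side used to choose the peaks. All 3 lists have a crest 300 to 500 bp upstream, a low stretch from about the TSS to 400 bp downstream and a crest about 1 kb downstream.

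The threshold cut through a continuous distribution. The outermost peaks inside it, nearest to Brd2, Mfsd1 and Sap18b, had centres 999.5 bp from the TSS and widths of 1300, 1196 and 248 bp. Just outside, at 1000 bp, lay peaks of 1037, 841 and 799 bp nearest to 1810055G02Rik, Atpaf1 and Ercc3. Peaks on both sides of the threshold were overlapped by both replicates.

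Most promoter-proximal peaks were recovered in both replicate lists. Of the 14039, 13272 (94.5%) were overlapped by at least 1 bp in both lists, against 91.3% elsewhere and 91.5% of all autosomal peaks. The share was 93.3% for centres under 500 bp from the TSS, 95.5% from 500 bp to 1 kb and also 95.5% from 1 to 2 kb, so it was not particular to the 1 kb limit. A further 587 were overlapped by replicate 1 and not replicate 2, 171 by replicate 2 and not replicate 1, and 9 by neither (0.133% of all autosomal peaks had neither). These shares describe how the replicated list relates to the lists it was built from, per the read-me lists, and are not an independent test of the peaks.

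The replicates changed places between promoters and the rest of the autosomes. Replicate 1 overlapped 98.7% of the promoter-proximal peaks and replicate 2 overlapped 95.8%. Elsewhere the order was the opposite, 94.3% for replicate 1 and 96.8% for replicate 2, and over all autosomal peaks the shares were 94.6% and 96.7%. By covered sequence the contrast was larger. Replicate 1 covered 89.9% of the bases of promoter-proximal peaks and replicate 2 covered 79.8%, whereas elsewhere they covered 83.6% and 86.0%. The lists on mm9, deposited in another format, gave the same order: 92.6% and 85.8% near promoters against 81.3% and 86.1% elsewhere. Per the read-me lists, the mm10 list of replicate 2 was made with a further input file that the list of replicate 1 lacked, and the role of that file is not stated. Each replicate is also a separate library, so processing, library and culture cannot be told apart here. Depth was not tested, since the lists hold no read counts.

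Counted from the replicates' side, the asymmetry appeared again. Of the 18356 promoter-proximal peaks of replicate 1, 83.9% overlapped a peak of replicate 2, while of the 17279 of replicate 2, 94.4% overlapped a peak of replicate 1. For peaks elsewhere the shares were 83.0% and 78.6%. Promoter-proximal peaks that the other replicate missed were narrow, with a median of 225 bp in replicate 1 and 202.5 bp in replicate 2.

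Width and distance both tracked the support. Among promoter-proximal peaks narrower than 300 bp, replicate 1 overlapped 92.3% and replicate 2 overlapped 79.3%, against 81.4% and 88.4% of equally narrow peaks elsewhere. From 1500 bp upward, both replicates overlapped every promoter-proximal peak. By distance, the overlap by replicate 1 fell from 98.8% at 500 bp to 1 kb to 93.4% at 100 kb or more from a TSS, while that by replicate 2 was lowest, at 94.5%, under 500 bp. By side, replicate 2 overlapped 97.6% of peaks over the TSS, 96.1% of upstream peaks and 93.7% of downstream peaks. For replicate 1 these shares were 99.4%, 98.3% and 98.8%.

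**Figure D3:**
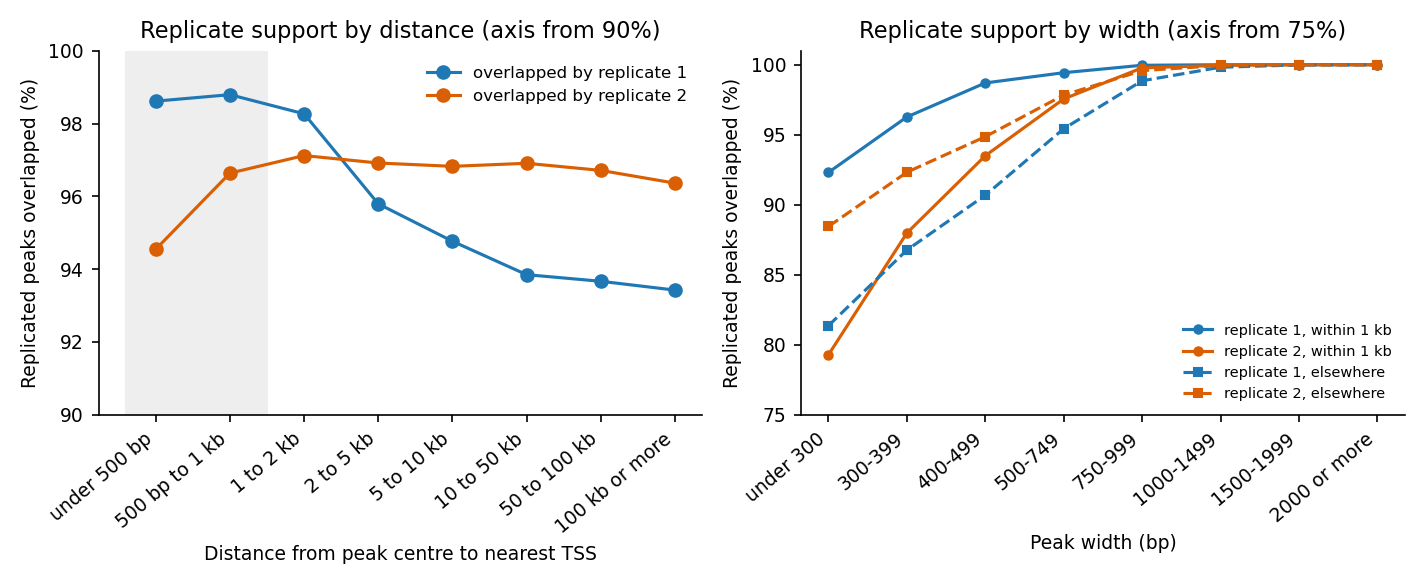
Percent of replicated peaks overlapped by each replicate list, by distance from the peak centre to the nearest TSS (left, axis from 90%, grey marks under 1 kb) and by peak width (right, axis from 75%). Replicate 1 lies above replicate 2 near the TSS and below it from 2 kb outward. In the narrowest class the values are 92.3% and 79.3% near a TSS and 81.4% and 88.4% elsewhere.

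At promoter-proximal peaks, the signal values of the replicates' own peaks were also higher in replicate 1. Unlike the overlap, this order did not turn elsewhere, where the medians of the replicates' own lists were 3.79 and 3.76. Whether the scale is the same in both lists is not known. Over the 13272 peaks supported by both, the strongest overlapping peak had a median signal value of 5.12 in replicate 1 and 4.38 in replicate 2, and it was higher in replicate 1 at 68.7% of them. The values of the replicates correlated across peaks with a Spearman coefficient of 0.64, given as a description, since the points share the same libraries. Of the 9 peaks supported by neither, the 5 widest measured 307 to 610 bp and were nearest to Fank1, Itgav, Cdc42bpb, Pnoc and Arid5b. Their signal values ran from 1.79 to 3.36, all below the median of 4.75.

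The strongest promoter-proximal peak lay just downstream of the start of Foxh1, a transcription factor of NODAL signalling. It spanned 1027 bp on chromosome 15 from 76670426 to 76671452 with a signal value of 15.9, and the replicates had 10.1 and 13.8 there. Next came the peak over the TSS of Ldb1, a LIM domain-binding cofactor, with 15.4 (replicates 16.6 and 9.62), and that of Baz2a, a subunit of a nucleolar chromatin remodeller, with 15.1 (11.8 and 16.9). The replicates thus differed in the order of these 3. Dedd2, Abi3, Mkrn1, Psors1c2, Gm46319, Cysrt1 and Nphs1 completed the 10 strongest, with 14.8 down to 13.6, and all but Foxh1 were covered at the TSS.

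The widest promoter-proximal peak covered the start of Gm45521 and spanned 14385 bp on chromosome 14 from 7950256 to 7964640. Peaks of replicate 1 covered 92.8% of it and peaks of replicate 2 covered 98.0%. A peak of 12198 bp covered the start of Nphs1, the gene of the kidney filtration protein nephrin, on chromosome 7 from 30452520 to 30464717. Nphs1 was also among the 10 strongest. The peak at Meox1, a homeobox gene of the somites, spanned 9705 bp on chromosome 11 from 101889159 to 101898863, with 97.4% and 98.6% of it covered. The other 7 of the 10 widest, at 2410137M14Rik, Lag3, Gjb5, Smpd5, Yjefn3, Trp53bp1 and Tmem40, measured 8904 down to 7648 bp. Each replicate covered at least 92.75% of every peak among the 10.

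At the level of genes, 11323 of 20364 autosomal protein-coding genes (55.6%) had a promoter-proximal peak. With the replicates' own lists the shares were 62.8% and 59.6%, a mean of 61.2% ± 2.22 (SD, n = 2). Peaks stood upstream only at 4031 genes (19.8%), over the TSS at 3628 (17.8%), on both sides at 2088 (10.3%) and downstream only at 1576 (7.74%). The upstream-only class held 19.05% of genes in replicate 1 and 20.9% in replicate 2, the over-TSS class 18.5% and 14.9%, the both-sides class 16.4% and 14.6%, and the downstream-only class 8.83% and 9.20%. The same class was found in both replicate lists for 75.4% of the both-sides genes, 74.8% of the genes without a promoter-proximal peak, 69.2% of the over-TSS genes, 62.4% of the upstream-only genes and 52.3% of the downstream-only genes. In the mm9 lists, whose intervals are wider, the upstream-only share was 12.8% and the over-TSS share 19.3%, so their order turned.

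A lack of a promoter-proximal peak did not mean a lack of the mark nearby. Of the 9041 genes without one (44.4%), 351 had the TSS inside a peak centred farther away, 2951 had a peak edge within 1 kb and 5739 had no replicated peak within 1 kb. Actb, the beta-actin gene, belonged to the first kind. Within 1 kb of its TSS in either direction, replicate 1 had 99.1% of the bases in peaks and replicate 2 had 98.8%. This quantity, the covered percent of that window, is given for named genes below as replicate 1 and replicate 2.

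Peaks on both sides of a start left the start in a gap. At the 2088 both-sides genes, the median gap between the nearest peaks was 549 bp (quartiles 353 and 749 bp), of which 175 bp lay upstream of the TSS and 344 bp downstream, each as its own median. The gap was 577 bp in replicate 1 and 680 bp in replicate 2. Most genes with any peak had 1 (8145 genes), 2987 had 2 and 188 had 3. Only Gm12657, Ccdc38 and Adamts6 had 4, with summed widths of 2104, 1722 and 1272 bp.

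Head-to-head gene pairs had peaks on their gene side more often. Among 1453 genes with a divergent TSS within 1 kb upstream, 21.1% were downstream only, against 6.71% of the other 18911 genes and 7.74% of all genes. The replicates gave 24.6% and 22.8% for head-to-head genes and 7.61% and 8.15% for the others. A promoter-proximal peak over the TSS was found at 6.13% of head-to-head genes and 18.7% of the others. Of all promoter-proximal peaks, 654 (4.66%) had a second TSS within 1 kb of their centre.

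The classes differed in CpG content. The CpG ratio, observed over expected from base composition in the 300 bases around the start, had a median of 0.78 at upstream-only genes, 0.72 at both-sides genes and 0.71 at downstream-only genes. It was 0.41 at over-TSS genes, 0.31 at genes without a promoter-proximal peak and 0.58 over all genes. The sequences printed above have ratios of 1.08 for Ctnnb1, 0.42 for Bmp4 and 0.25 for Afp. Windows were taken at the mm9 start of the same gene, known for 95.5% of genes. The classes use the 5′ end of the gene record, so window and class can refer to different places. Among genes in the RefSeq promoter table, that end lay over 1 kb from the tabulated start at 15.8% of over-TSS genes. The share was 3.75% at upstream-only genes and 18.2% at downstream-only genes.

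From the lowest to the highest quintile of this ratio, the over-TSS class held 14.0%, 32.3%, 24.3%, 11.3% and 7.91% of genes, and was thus highest at low to intermediate CpG content. The upstream-only class held 3.80%, 8.46%, 24.2%, 32.8% and 32.5%. Genes without a promoter-proximal peak were 77.6% of the lowest quintile and 24.8% of the middle one. In the mm9 lists the over-TSS shares were 13.8%, 30.9%, 33.6%, 13.9% and 4.13%, with the highest value in the middle quintile.

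**Figure D4:**
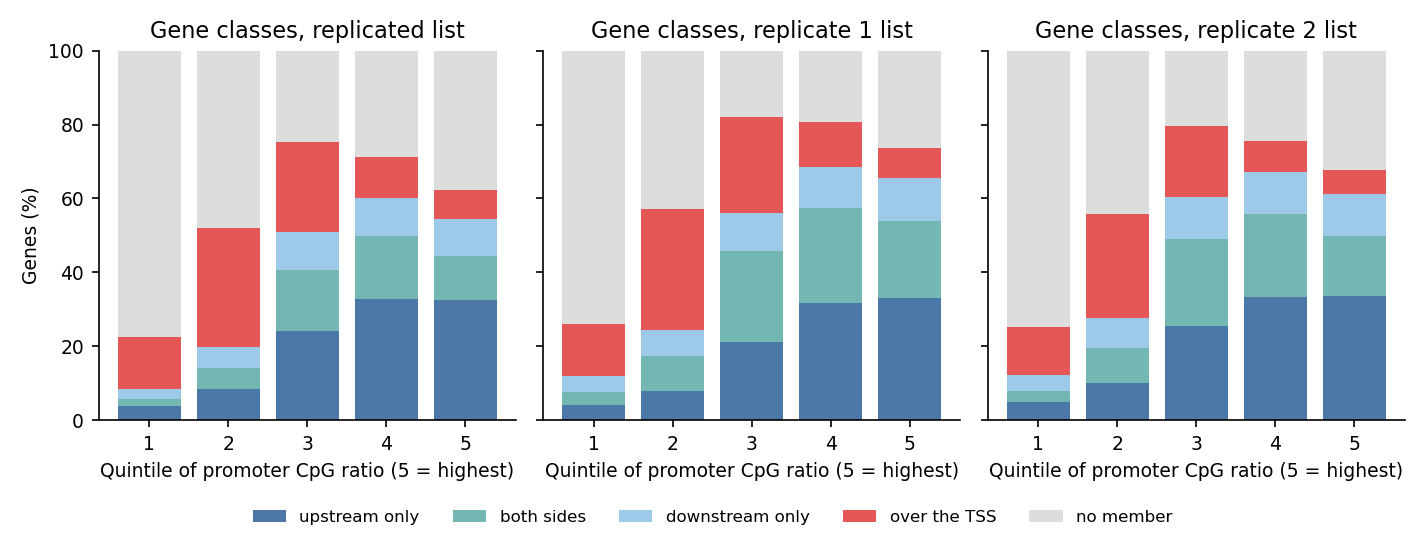
Percent of genes in each class by quintile of the promoter CpG ratio (1 lowest, 5 highest), for the replicated list and each replicate list. The red over-TSS block is widest in quintile 2 and narrows toward quintile 5, while the blue upstream-only block grows from 3.80% to 32.5% in the replicated list.

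Short sequence motifs were counted in the same windows on both strands, as letters and not as binding sites. TATAAA, the letters of a TATA box, was in 19.4% of windows of genes without a promoter-proximal peak, 10.2% of over-TSS genes, 6.92% of upstream-only genes and 13.1% of all genes. GGGCGG, the GC box of SP-family factors, was in 32.1%, 41.8%, 66.4% and 46.3%. CCGGAAG, an ETS core, was in 9.48%, 6.35%, 17.6% and 11.5%. CCAAT varied less between the classes, from 33.4% at over-TSS genes to 39.8% at genes without a peak. GGGCGG and CCGGAAG contain CpG, so their shares are not separate from the CpG ratio.

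The choice of start bears on the over-TSS class. The 5′ end of the gene record was a start in the RefSeq promoter table for 59.8% of the genes with an entry, but for 46.3% of over-TSS genes. Where it was, 13.3% of genes had a promoter-proximal peak over it, and where it lay over 100 bp from the tabulated start, 32.1% did.

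Lineage factor genes had peaks over the TSS more often than all genes. Counted over the mesoderm, endoderm, neuroectoderm and Hox lists, 45 of 83 genes (54.2%) were of the over-TSS class, against 17.8% of all genes, with 46 in replicate 1 and 37 in replicate 2. Over the ribosomal protein, Polycomb, H3K4 enzyme and housekeeping lists it was 8 of 127 (6.30%), with 10 and 7. The contrast was also present among genes in the upper 3 quintiles of the CpG ratio, with 32 of 62 and 6 of 113, against 14.5% of all such genes. CpG content was not made equal by this: the joined lists had median ratios of 0.60 and 0.84. Over-TSS shares of all genes fell from 24.3% in quintile 3 to 7.91% in quintile 5. The part of CpG content in the contrast was not tested. Among genes whose 5′ end is a tabulated start the over-TSS counts were 21 of 39 and 2 of 73, against 13.3% of all such genes. The class leaves out a TSS inside a peak centred farther away, as at 1 endoderm, 1 ribosomal protein and 1 housekeeping gene. These lists were joined after their values were seen, and Hox neighbours can share a peak, so the counts are a description.

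**Figure D5:**
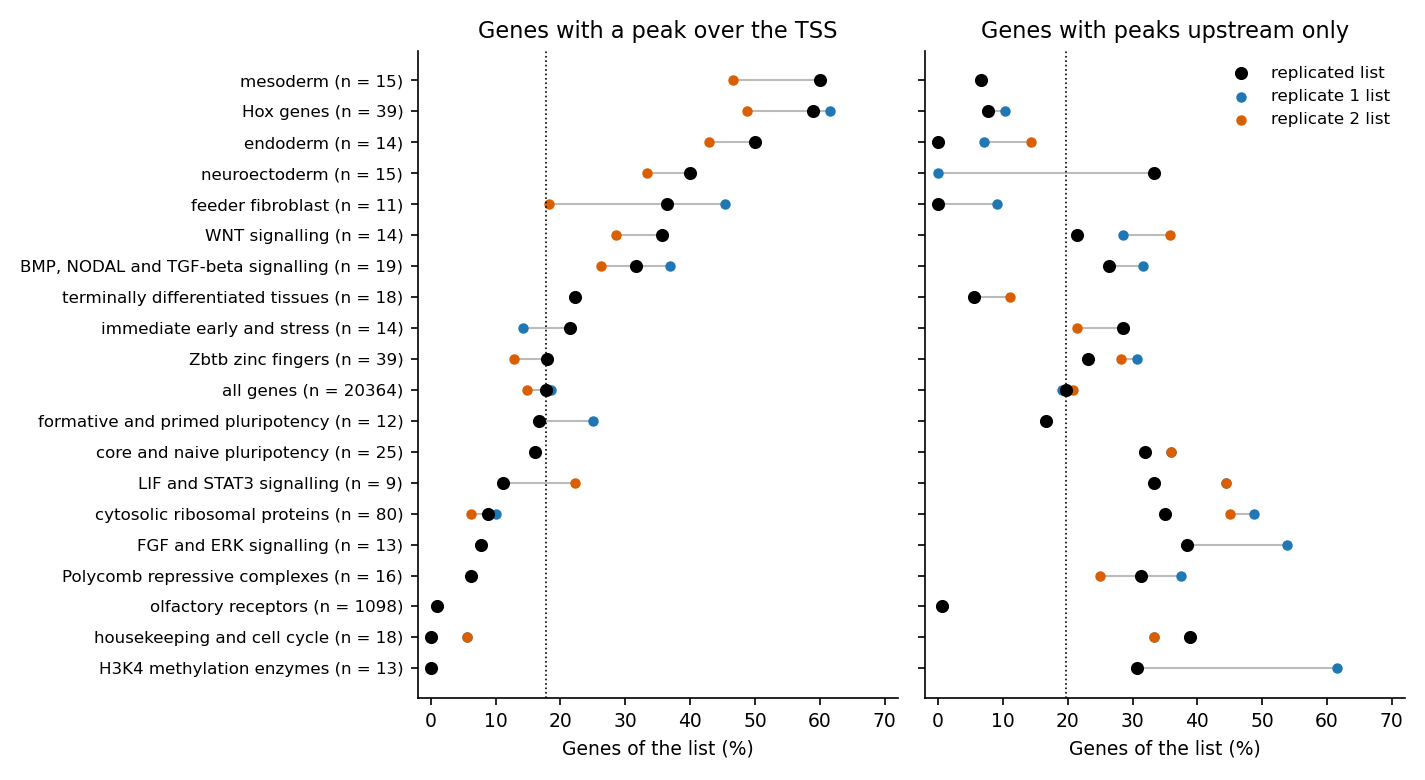
Percent of the genes of each list in the over-TSS class (left) or the upstream-only class (right). Black is the replicated list, and blue and orange are the replicate lists. Dotted lines mark all genes, at 17.8% and 19.8%. Mesoderm and Hox genes have the highest over-TSS shares, 60% and 59.0%. In the replicated list no H3K4 methylation enzyme or housekeeping gene is of this class. The TSS of the housekeeping gene Actb lies in a peak centred farther away, which the class does not count.

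Of the 39 Hox genes, which encode homeodomain factors that pattern the body axis, 36 had a promoter-proximal peak (92.3%, against 55.6% of all genes). At 23 it lay over the TSS (59.0%, against 17.8% of all genes). Hoxd11 had the largest summed width, with a peak of 2816 bp on chromosome 2 from 74678434 to 74681249 that covered 100% and 87.4% of the window in the replicates. Hoxb1 followed with 2678 bp (82.8% and 94.2%). The 3 without a promoter-proximal peak were Hoxb3, Hoxc4 and Hoxd4, and of these Hoxc4 had no base covered in either replicate. The 5′ end of the gene record, used as the TSS, was a start in the RefSeq promoter table for 18 of the 39 genes. A peak at another start of the gene, centred 1 kb or more away, was not counted.

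All 15 neuroectoderm genes had a promoter-proximal peak, against 55.6% of all genes. It covered the TSS at 6 of them (40%, against 17.8% of all genes). Pax6, among these, had 4358 bp, from 2665 bp before to 1692 bp after the TSS (97.7% and 94.1%). Neurog1 had 1184 bp upstream and 1461 bp downstream (75.4% and 66.9%). The 5 upstream-only genes of the list, such as the neural factor gene Sox1, had that class in replicate 2 but had peaks on both sides or over the TSS in replicate 1.

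In the mesoderm list, 13 of 15 genes had a promoter-proximal peak (86.7%, against 55.6% of all genes). Of the 15, 9 had it over the TSS (60%, against 17.8%). Tbx6, a T-box factor of the presomitic mesoderm, had a peak of 2645 bp (95.2% and 77.1%), and Eomes, a T-box factor of early mesoderm and endoderm, had 2529 bp (68.2% and 59.4%). Meox1 showed how the rule depends on the peak's outline: its window was covered to 96.2% and 94.3%, yet neither replicate list had a peak centred within 1 kb. Gata4 had no covered base within 1 kb of the 5′ end of its gene record, and Snai1 had 83.9% and 60.8% without a promoter-proximal peak.

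Among 14 endoderm genes, 9 had a promoter-proximal peak (64.3%, against 55.6% of all genes). Of the 14, 7 had it over the TSS (50%, against 17.8%). Sox17, a founding factor of the endoderm, had 2367 bp (94.0% and 70.6%), and Pdx1, of the pancreas, had 2269 bp (79.8% and 47.7%). In replicate 2 Sox17 was of the both-sides class and Pdx1 was upstream only. Afp and Dab2 had no covered base.

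The core and naive pluripotency list, the factors that hold the undifferentiated state, was close to all genes, with 15 of 25 (60%, against 55.6%). At 4 a peak lay over the TSS (16%, against 17.8% of all genes). Tcl1, a cofactor of AKT kinase, had a peak of 2026 bp over its TSS (87.4% and 80.8%), and Prdm14, a repressor of differentiation, had 2 peaks (85.4% and 50.6%). Pou5f1, the OCT4 gene, had a peak of 749 bp that ended 120 bp before the TSS, with 37.7% of the window covered in replicate 1 and 8.10% in replicate 2. The peak at Nanog was overlapped by replicate 1 and not replicate 2 (38.2% and 0%). Sox2 and Zfp42 had no covered base within 1 kb. In the formative and primed list 6 of 12 genes had a promoter-proximal peak (50%, against 55.6% of all genes). The peaks of Otx2 (84.1% and 77.1%) and Sall2 (92.7% and 80.3%) covered the TSS.

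In the BMP, NODAL and TGF-beta list, 13 of 19 genes (68.4%) had a promoter-proximal peak, against 55.6% of all genes. The ligand gene Bmp4 had 3201 bp over the TSS (91.9% and 88.9%), the BMP target Id1 4026 bp (100% and 85.6%) and the NODAL antagonist Lefty1 3869 bp (100% in both). In replicate 2 Bmp4 was of the both-sides class. Smad1, Smad4 and Smad5, which encode signal transducers, were upstream only in both replicates, with 22.1% to 42.4% of the window covered in replicate 1 and 17.3% to 31.3% in replicate 2. Lefty2 had no promoter-proximal peak in the replicated list, although 95.7% and 92.3% of its window was covered.

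In the WNT list, 8 of 14 genes (57.1%) had a promoter-proximal peak, against 55.6% of all genes. It lay over the TSS at 5 genes (35.7%, against 17.8% of all genes). The feedback inhibitor gene Axin2 had 3973 bp (92.3% and 98.0%) and its paralog Axin1 had 2864 bp (94.95% and 89.3%). Ctnnb1 had 1475 bp upstream (38.3% and 37.5%). In the LIF and STAT3 list 6 of 9 genes (66.7%) had a promoter-proximal peak. A peak of 2446 bp covered the start of Lifr, the LIF receptor gene (72.5% and 52.0%). The target gene Bcl3 had peaks on both sides (77.96% and 58.5%). In the FGF and ERK list 8 of 13 genes (61.5%) had a promoter-proximal peak, with 5 upstream only (38.5%, against 19.8% of all genes). By the replicates' own lists the share of FGF and ERK genes with a promoter-proximal peak was 84.6% and 53.8%.

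Of 16 Polycomb genes, which encode repressors of developmental genes, 8 had a promoter-proximal peak (50%, against 55.6% of all genes). At 5 it was upstream only (31.25%, against 19.8% of all genes) and at 1, Pcgf1, over the TSS (6.25%, against 17.8%). Phf19, an accessory subunit, had peaks on both sides with a summed width of 2001 bp (78.5% and 58.0%), but was upstream only in replicate 1. Eed, a core subunit gene, had 3.898% and 2.75% covered. Of 13 genes for H3K4 methylation enzymes and their cofactors, 5 had a promoter-proximal peak (38.5%) and 0 had it over the TSS in any of the 3 lists. The replicates' own lists gave 69.2% and 38.5% of these genes, against 62.8% and 59.6% of all genes. Upstream only were 8 and 4 of them (61.5% and 30.8%, against 19.05% and 20.9% of all genes). Kdm5b, an H3K4 demethylase gene, had 872 bp upstream (43.0% and 42.5%), and the methyltransferase gene Kmt2c had no covered base.

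Ribosomal protein and housekeeping genes that had a promoter-proximal peak had it mainly upstream. The ribosomal protein symbols took 80 genes, by a pattern that also takes paralogs such as Rpl3l and Rpl10l. Of these, 37 had a promoter-proximal peak (46.25%, against 55.6% of all genes) and 28 were upstream only (35.0%, against 19.8%). In replicate 1 the upstream-only count was 39 and in replicate 2 it was 36. The largest summed widths, at Rps2 (90.8% and 91.9%), Rpl18 (73.5% and 68.9%) and Rpl3l (61.7% and 55.5%), were over the TSS. In replicate 2 Rpl18 was downstream only. Of 18 housekeeping and cell cycle genes, 10 had a promoter-proximal peak (55.6%, the same share as all genes). It was upstream only at 7 (38.9%, against 19.8% of all genes) and on both sides at 3. Tbp had 1251 bp upstream (57.2% and 56.8%), and Cdk1 had no covered base. Of 14 immediate early and stress genes 9 had a promoter-proximal peak (64.3%, against 55.6% of all genes). It covered the TSS at 3 of them (21.4%, against 17.8% of all genes), namely Jund (77.8% and 76.1%), Nr4a1 (76.3% and 70.1%) and Junb.

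Markers of other cells were mixed. Of 11 fibroblast genes, included because embryonic stem cells may be grown on feeder fibroblasts, 6 had a promoter-proximal peak (54.5%, against 55.6% of all genes). It was over the TSS at 4 genes (36.4%, against 17.8% of all genes), with 5 in replicate 1 and 2 in replicate 2. Among the 4 were Thy1 (96.5% and 79.4%), Pdgfrb (84.6% and 70.8%) and Col1a2 (62.7% and 78.5%). In replicate 2 Thy1 was of the both-sides class. The matrix genes Col3a1, Dcn, Lum and Postn had no covered base. A peak at a gene does not show that it is transcribed, and whether other cells were in the cultures was not tested. Among 18 genes of terminally differentiated tissues 7 had a promoter-proximal peak (38.9%, against 55.6% of all genes). It lay over the TSS at the skeletal actin gene Acta1 (72.4% and 68.7%) and at Apoa1 (68.7% and 47.9%). The myelin gene Mbp had peaks on both sides (64.2% and 65.8%). Alb and Gcg had no covered base.

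Of 1098 olfactory receptor genes 28 (2.55%) had a promoter-proximal peak, against 55.6% of all genes, with 2.82% and 2.64% in the replicate lists. The widest were over the start of Olfr222, 1838 bp (85.9% and 86.1%), and Olfr1342, 1776 bp (93.7% and 82.4%). The median CpG ratio of the olfactory genes was 0.11. Of 39 Zbtb genes, which encode zinc finger factors with a BTB domain, 19 had a promoter-proximal peak (48.7%, against 55.6% of all genes). At 7 it lay over the TSS (17.9%, against 17.8% of all genes). Zbtb32 had 4552 bp (94.3% and 100%) and Zbtb46 had 88.4% and 100% of its window covered.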

How the data were processed

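H3K4me1 ChIP-seq of 2 biological replicates of E14TG2a.4 cells was analysed from the authors' peak lists. Per the read-me lists, the authors deposited mm10 lists for replicate 1, replicate 2, the pooled replicates and the replicated peaks, and mm9 lists for the series and each replicate. Which aligner and caller made them is not given in the sources used here. The deposited mm10 lists give per peak a signal value with −log10 p and −log10 q. Those deposited on mm9 give signal values, and their p-value and q-value columns were not used. Read counts are in none of the lists. Depth is therefore unknown, and no counting interval is given.

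Starts were the 5′ ends of 20364 autosomal protein-coding genes of a RefSeq table of GRCm38.p6. Strands came from the RefSeq promoter table (16457 genes) or from GENCODE vM1 by symbol (3538) or synonym (369), and 301 genes without a strand were left out. Among 15748 genes with a strand in both sources, 44 strands differed. A peak belongs to its nearest TSS, and a gene's class uses every peak centred under 1 kb from its own TSS. Overlap was counted from 1 bp. CpG ratios and motifs came from mm9 windows of 250 bases before to 50 after the GENCODE start. No coordinate was converted between builds. With a lone group of 2 libraries no test between groups was possible, and peaks and genes are not replicates, so no p-value was computed.

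The members, gene lists and settings were chosen with earlier results of these data known. Named genes were those at the 10 widest and 10 strongest peaks, the genes with the most peaks, the 3 genes of each list with the largest summed width and up to 3 without a peak, the 5 widest peaks in neither replicate, and the 3 on each side of the threshold. Others in the text (Pou5f1, Nanog, Sox2, Zfp42, Sox1, Smad1, Smad4, Smad5, Pcgf1, Junb, Lum, Postn and Lefty2 among them) were chosen for naming with their values in view. The alternatives were other distances, edges in place of centres, the pooled list, the 50000 strongest peaks, peaks with −log10 q from 2 upward, each replicate left out, isolated genes, strands by symbol, the mm9 lists and a 50% reciprocal overlap. The 2 that take starts from the RefSeq promoter table were added after the data were seen. The 7 interval and gene functions were tested on simulated data and gave the known answers. Software was pandas 2.3.3 with numpy 2.4.6 and scipy 1.17.1 under Python 3.11.15, and figures were drawn with matplotlib 3.10.9.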

Additional observations from a re-analysis of the deposited data

How the results depend on the processing

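No paired analysis was possible because the labels give a lone group. Over the 9 main results, 53 alternative values differed from the reported value by no more than the SD between the replicates (n = 2). That SD came from the values with each replicate left out, which are themselves among the alternatives. For the share overlapped by both replicates, it was the SD of the overlaps with each replicate alone, a different measure. For counts the limit was 1.5 times. The other 64 moved, and the cause was not tested beyond what each setting changes by construction. The 9 results are the number of promoter-proximal peaks, their median width and signal value, the downstream and over-TSS shares, the share overlapped by both replicates, the shares of genes with a peak and with peaks on both sides, and the median share over the 19 gene lists (57.1% as reported).

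With centres under 500 bp there were 5921 peaks, of 590 bp and signal value 4.47, 37.3% downstream and 49.6% over the TSS, at 27.8% of genes, on both sides at 0.933%, and at 23.1% for the lists. With centres under 2 kb there were 26153 peaks of 805 bp, 51.3% downstream and 14.8% over the TSS, at 72.8% of genes, on both sides at 34.7%, and at 86.3% for the lists. With edges in place of centres there were 23084 peaks of 925 bp and signal value 5.26, 51.2% downstream and 17.2% over the TSS, at 71.8% of genes, on both sides at 35.1%, and at 88.9% for the lists. The excess upstream thus depends on the 1 kb limit.

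The pooled list gave a width of 621 bp, a signal value of 4.41, 23.3% over the TSS, 81.3% overlapped by both replicates, 59.95% of genes and 13.1% on both sides. The 50000 strongest peaks gave 3471 peaks of 1109 bp and signal value 7.07, 38.7% over the TSS, 99.97% overlapped by both, 16.8% of genes, 0.771% on both sides and 15.4% for the lists. The mm9 lists gave 8331 peaks of 1200 bp (against 1800 bp elsewhere), 48.3% over the TSS, 82.7% overlapped by both, 38.1% of genes, 2.41% on both sides and 27.3% for the lists. A 50% reciprocal overlap left 72.8% overlapped by both. Starts from the RefSeq promoter table gave 20.2% over the TSS and 12.2% of genes on both sides. Genes whose 5′ end is such a start gave 5964 peaks, 40.5% downstream, 21.8% over the TSS and 47.8% of genes.

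Leaving out a replicate meant using the other's own list, with 17279 to 18356 peaks of 452 to 530 bp, signal values of 4.17 to 4.46, 42.8% to 44.4% downstream, 17.4% to 20.3% over the TSS, 59.6% to 62.8% of genes, 14.6% to 16.4% on both sides and 57.5% to 71.4% for the lists. The share overlapped by the replicate that remained was 95.8% to 98.7%. Replicate 1 overlapped more promoter-proximal peaks than replicate 2 under all 12 alternatives run for that difference, by 0.03 to 9.97 percentage points, and fewer of the other autosomal peaks. Both differences were smallest among the 50000 strongest peaks, where nearly every peak was in both lists. Without read counts, depth cannot be set beside any of these values.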
